A study of Mus musculus with 8 samples.

Results

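The nuclear genes for subunits of the respiratory chain and of ATP synthase were followed in advanced lesions of the mouse brachiocephalic artery. Members were taken by symbol: rows that begin with Nduf and a subunit letter and number, Sdha to Sdhd, rows that begin with Uqcr, Cox4 to Cox8 rows and rows that begin with Atp5. Cox7a1 and Cox8b, isoforms of muscle and brown fat, were left out and are given only for comparison. This gave 82 of the 24391 genes in the table: 37 named for complex I, 4 for complex II, 8 for complex III, 16 for complex IV and 17 for complex V. The symbols also bring in Ndufa4, which is now assigned to complex IV, its paralogue Ndufa4l2, and Atp5s and Atp5sl, which are not classical ATP synthase subunits. Subunits encoded by mitochondrial DNA were not analysed here.

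Complex I takes electrons from NADH and complex II from succinate, complex III passes them to cytochrome c and complex IV to oxygen. Complexes I, III and IV pump protons across the inner mitochondrial membrane, and complex V, the ATP synthase, lets them back to make ATP. In brown adipocytes Ucp1 offers the protons a way back without ATP synthesis. These cells are packed with mitochondria but hold little ATP synthase relative to the other complexes, and Atp5g1, a gene for the membrane ring subunit c, is known to be limiting there.

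All 8 animals were C57BL/6 mice, called wild type within a smooth muscle lineage tracing experiment, and had eaten a Western diet for 18 weeks. Of these, 4 had been injected with an antibody against interleukin-1β (the IL1_AB animals, here antibody animals 1 to 4) and 4 with immunoglobulin G (the IgG_Control animals, here IgG animals 1 to 4). The transgenes of the lineage tracing line, the antibody dose and its schedule, and the age of the mice are not given in the sources used here. RNA came from whole frozen vessel pieces, labelled as a mixture of smooth muscle cells, epithelial cells, macrophages and others.

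Libraries held between 20137336 and 29453014 assigned counts. Expression is given as CPM, counts relative to the TMM-scaled library size, and levels of different genes are compared as RPKM, CPM per kilobase of exon. Smooth muscle and macrophage markers were abundant, with Myh11 at 1021 ± 222 CPM and Cd68 at 237 ± 101 CPM in IgG animals (SD, n = 4), whereas the epithelial markers summed to at most 28.6 CPM in any library and Epcam had 0.341 ± 0.369 CPM in IgG animals. Markers of brown adipocytes were also present: their summed level was 1977 to 2693 CPM with IgG and 1821 to 5765 CPM with the antibody, although Zic1 was at or under 0.184 CPM in every library. IgG animal 2 stood apart by cardiac muscle transcripts (Myh6 at 59.6 and Nppa at 67.4 CPM, against at most 4.26 and 2.27 CPM in the other 7 animals). It also had the lowest share of alignments assigned to genes (24.4%, against 27.9% to 34.9%). The next lowest share, 27.9%, was that of antibody animal 3.

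Many of these genes are known targets of the transcription factors NRF1, GABP and YY1, so their promoters were read for the motifs of those factors. RefSeq (GRCm38.p6) held a promoter window, 250 bases before to 50 bases after the annotated start, for 67 of the 82 members. A gene with several windows was counted once, if any of them held the motif. The NRF1 motif was the half-site GCGCA followed directly by its reverse complement, and so the same on both strands. It was found for 5 of the 67 members (7.46%), against 1.07% of all 27025 genes. The GABP motif CCGGAAG, searched on both strands, was in 16 (23.9%, against 9.93% of all) and the YY1 motif AAGATGGC, also on both strands, in 11 (16.4%, against 3.19%). At least 1 of the 3 was found for 29 members (43.3%, against 13.4% of all genes), and the motifs share no stretch that would make 1 match count for another. The background was not limited to expressed genes or to promoters of like base content. Whether the excess is particular to these genes was therefore not tested. These are matches of letters and not measured sites. Uqcr10 is shown beside 4 promoters with a match because it varied with the other members although no motif lay in the stretch shown. Each sequence runs 5′ to 3′ along the gene from 170 bases before the RefSeq start to 30 bases after it, and capitals mark the motif (in Cox6a1 the first is NRF1, and all others are GABP).
Cox6a1 (chr5:115348929-115349128, minus strand): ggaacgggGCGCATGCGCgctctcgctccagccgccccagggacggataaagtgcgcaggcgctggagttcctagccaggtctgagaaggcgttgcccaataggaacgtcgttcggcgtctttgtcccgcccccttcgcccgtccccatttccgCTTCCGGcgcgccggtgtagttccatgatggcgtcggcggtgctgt
Uqcrh (chr4:116075041-116075240, minus strand): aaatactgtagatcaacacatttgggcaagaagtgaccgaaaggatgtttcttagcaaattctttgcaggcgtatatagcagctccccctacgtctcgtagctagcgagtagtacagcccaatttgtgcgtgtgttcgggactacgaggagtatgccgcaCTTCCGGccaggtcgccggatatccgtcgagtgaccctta
Ndufs3 (chr2:90904692-90904891, minus strand): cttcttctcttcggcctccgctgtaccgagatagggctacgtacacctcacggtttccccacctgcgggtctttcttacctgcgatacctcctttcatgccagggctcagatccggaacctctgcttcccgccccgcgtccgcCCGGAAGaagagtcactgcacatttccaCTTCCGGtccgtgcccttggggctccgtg
Cox8a (chr19:7217587-7217786, minus strand): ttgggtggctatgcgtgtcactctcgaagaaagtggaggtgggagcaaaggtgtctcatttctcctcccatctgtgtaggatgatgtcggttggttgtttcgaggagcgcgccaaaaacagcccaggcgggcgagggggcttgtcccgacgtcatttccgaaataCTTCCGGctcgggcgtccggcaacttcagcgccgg
Uqcr10 (chr11:4704315-4704514, minus strand): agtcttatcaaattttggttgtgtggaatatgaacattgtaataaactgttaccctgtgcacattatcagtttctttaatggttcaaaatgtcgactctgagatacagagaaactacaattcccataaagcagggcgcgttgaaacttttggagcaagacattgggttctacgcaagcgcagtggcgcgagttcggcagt

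Per exon length, members of all 5 complexes reached high levels, and the restricted paralogues stood far below them. The highest members were Atp5b, the catalytic β subunit of ATP synthase, at 1028 ± 263 RPKM (SD over 8 animals), and Cox4i1, the common form of subunit 4 of cytochrome oxidase, at 590 ± 126 RPKM. Median levels were 120 RPKM for complex I, 217 for complex II, 263 for complex III, 311 for complex IV and 160 for complex V. Within complex I the 7 core subunits, which carry the electron path, had a median of 112 RPKM (86.3 to 238) and 27 accessory subunits one of 128 RPKM (16.4 to 325), so the ranges overlapped. Sdha, the flavoprotein of succinate dehydrogenase, stood at 299 ± 83.9 and its partner Sdhb at 239 ± 61.9 RPKM. The membrane anchors Sdhd and Sdhc had 194 ± 44.3 and 143 ± 33.0 RPKM. All 8 complex III members lay between 178 (Uqcrfs1, the iron-sulfur protein) and 367 RPKM (Uqcrh, the hinge protein), and neighbours in that order differed by less than their SD over animals.

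**Figure D1:**
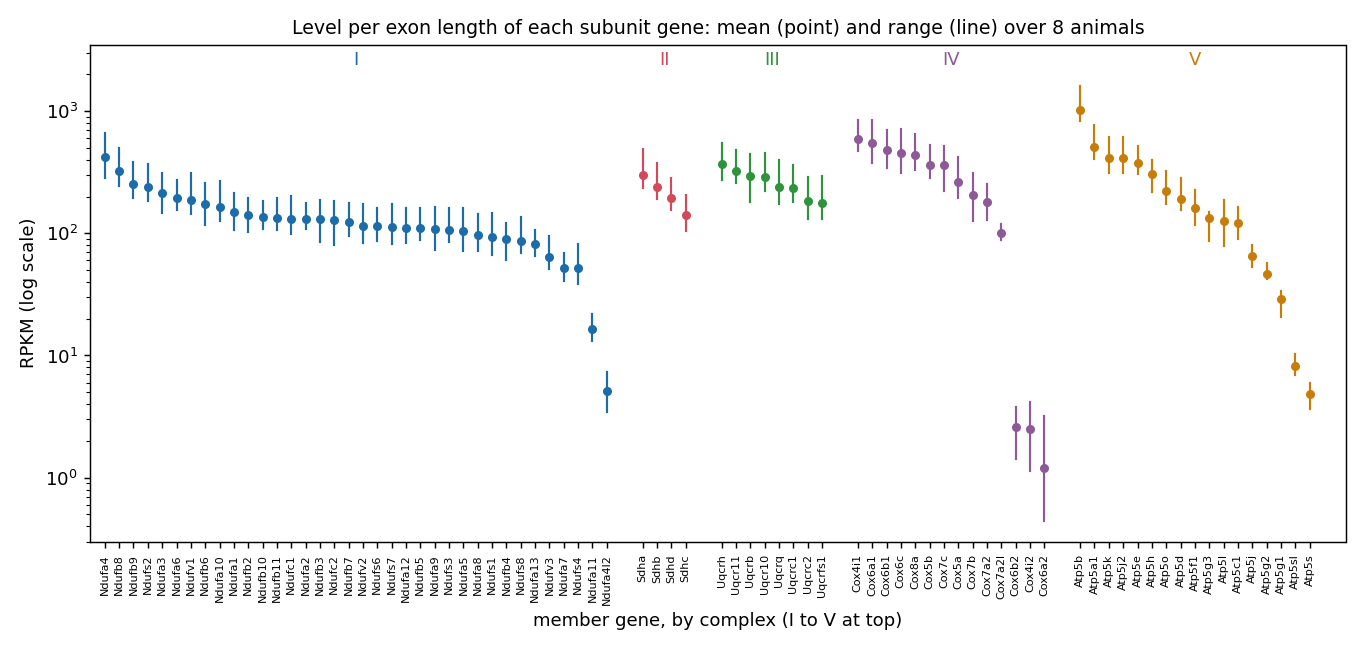
Level per exon length (RPKM, log scale) of the 79 members with counts, grouped by complex. Points are means and lines the range over 8 animals, and Cox6b2, Cox4i2 and Cox6a2 of complex IV lie under 5.

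Common isoforms far exceeded the restricted ones for subunits 4 and 6a of cytochrome oxidase, whereas the muscle and brown fat forms of subunits 7a and 8 exceeded the common ones. Cox4i1 exceeded Cox4i2, an isoform of lung and oxygen-poor tissue, by a ratio of 257 ± 166 with IgG and 286 ± 95.2 with the antibody (RPKM over RPKM, SD, n = 4). Cox6a1, the common form, exceeded Cox6a2, the heart and skeletal muscle form, 384 ± 177 and 838 ± 383 times, with the lowest ratio, 161, in IgG animal 2. The left-out isoform Cox7a1 exceeded its member counterpart Cox7a2 by 1.79 ± 0.249 with IgG and 1.84 ± 0.314 with the antibody. Cox8b exceeded Cox8a by 1.34 ± 0.143 and 1.56 ± 0.172, and the highest of these ratios, 1.80, was in antibody animal 3. The groups overlapped in all 4 ratios. Cox6b2 and Cox7b2 are known mainly from testis, as is Cox8c: Cox6b2 stood at 2.61 ± 0.717 RPKM, and Cox7b2 and Cox8c had 0 counts in all 8 libraries, where 3 counts would be 0.102 to 0.149 CPM.

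Ndufs5, a complex I accessory subunit that respiring cells use, was also listed at 0 in all 8 libraries (mm9 chromosome 4, 123389953 to 123395429, 509 exon bases). Reads that align to several places were left out of the counts, and 35.2% to 48.0% of alignments were of that kind. Whether that accounts for the 0 was not tested, and the gene is treated as unmeasured. The other 79 members passed the filter on low counts, and the 3 that did not were at 0 in both groups.

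The members varied together from animal to animal, and antibody animal 3 had the highest level of most of them. Together they took 1.48%, 1.16%, 1.32% and 1.22% of assigned counts across IgG animals 1 to 4, and 1.50%, 1.25%, 2.13% and 1.72% across antibody animals 1 to 4. The means were 1.30% ± 0.140 and 1.65% ± 0.373 (SD, n = 4), and the groups overlapped. Antibody animal 3 held the highest CPM of 71 of the 79 members, where it did so for 15.2% of all 15980 genes kept. Antibody animal 4 was second for 70 members (12.5% of all genes), and IgG animal 2 was lowest for 44 (23.6% of all genes). The median ratio of antibody animal 3 to the mean of the other 7 was 1.57 for complex I, 1.64 for II, 1.71 for III, 1.56 for IV and 1.45 for V, against 0.995 over all genes. The tissue was measured in bulk, so more cells rich in mitochondria and more subunit RNA per cell cannot be told apart.

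**Figure D2:**
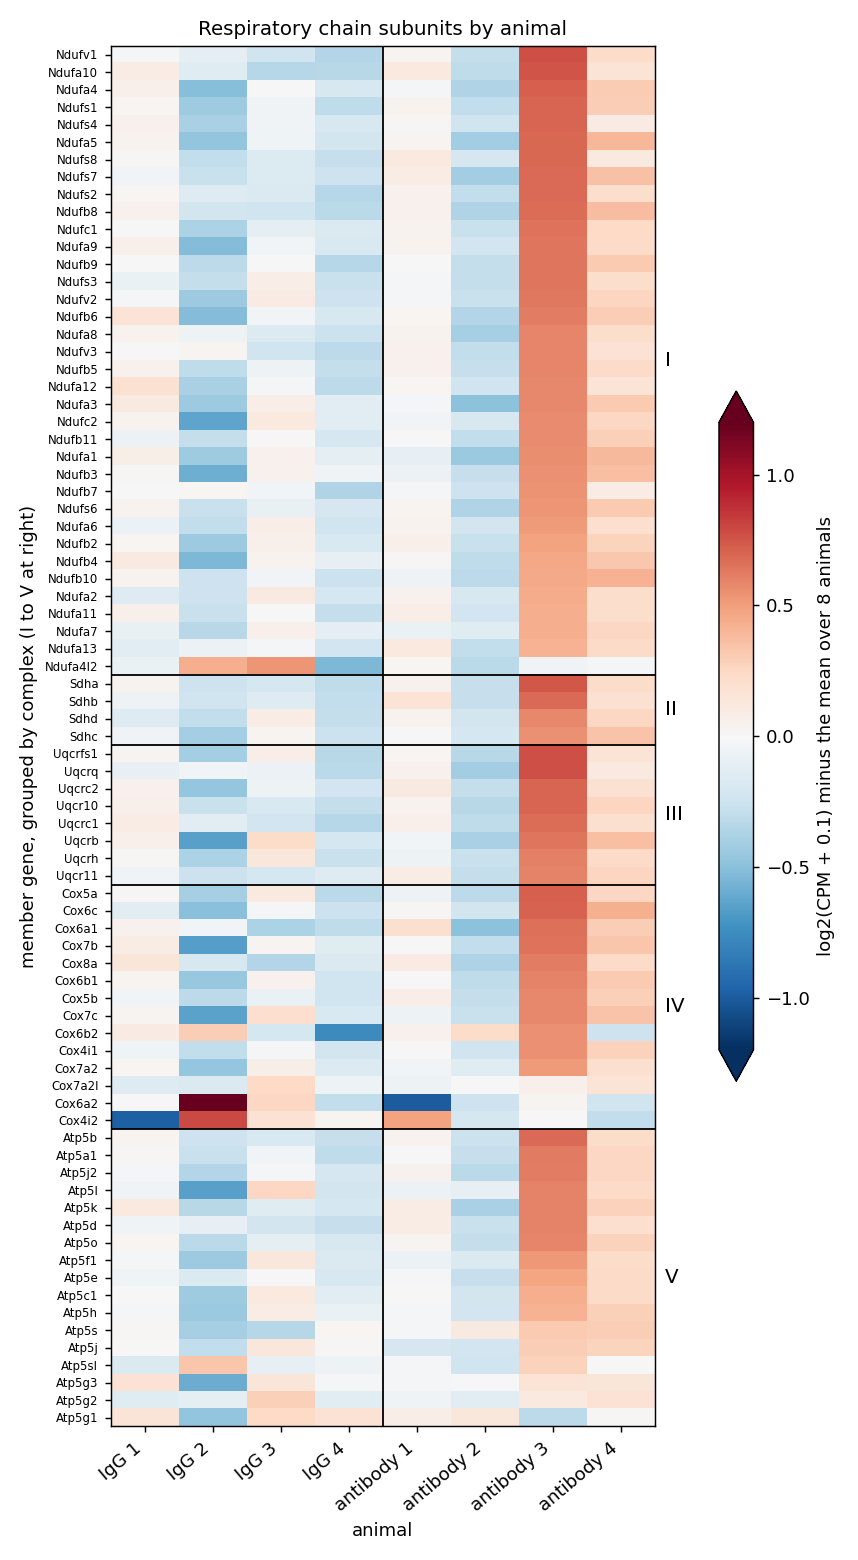
Each member's log2(CPM + 0.1) minus its mean over 8 animals (colour), for 79 members in rows by complex and 8 animals in columns. Antibody animal 3 is the highest for 71 members, and the 8 exceptions belong to complexes I, IV and V.

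Across animals, members correlated with one another far more than genes of like abundance did. Over the 74 members above 10 CPM the median pairwise correlation of log2 CPM was 0.92 (2701 pairs, 8 animals), against 0.02 over 8075 genes in the same range of mean level. Within complexes it was 0.93 for I, 0.92 for II, III and IV, and 0.77 for V. These correlations share the 8 libraries and antibody animal 3, and are given as a description. With the mean of the other members, 61 of 79 had r of 0.9 or more, and 3 had r below 0: Cox6a2 (-0.27), Cox4i2 (-0.25) and Atp5g1 (-0.25).

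Complex I, the NADH dehydrogenase, followed this order in nearly all members. Ndufs8, an iron-sulfur core subunit (mm9 chromosome 19, 3908863 to 3912774), had 87.6, 70.4, 77.3 and 71.4 CPM across IgG animals 1 to 4, and 93.9, 75.1, 139 and 94.2 CPM across antibody animals 1 to 4. Ndufs7, its neighbour in the electron path (chromosome 10, 79712197 to 79719537), had 80.3, 68.5, 73.5 and 69.1 CPM with IgG and 87.3, 61.7, 132 and 105 CPM with the antibody. In both genes antibody animal 3 was highest and antibody animal 2 lay within or below the IgG values, so the groups overlapped. Ndufv1, the NADH-binding flavoprotein, had the highest ratio of antibody animal 3 to the other 7 within the complex, 1.83. Among accessory subunits, Ndufb8 had 209, 173, 171 and 162 CPM with IgG and 209.9, 158, 322 and 261 CPM with the antibody, and Ndufc1 47.8 ± 5.16 and 61.6 ± 16.7 CPM. Ndufa4l2, a paralogue known to be induced when oxygen is low, ran apart with 4.58, 6.59, 7.03 and 3.31 CPM with IgG and 4.93, 3.86, 4.68 and 4.78 CPM with the antibody. Ndufa4 itself, the highest complex I name per length (419 ± 120 RPKM), had 208, 140.2, 199.7 and 175 CPM against 197, 155, 327 and 247 CPM, again with the highest value in antibody animal 3.

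The 4 succinate dehydrogenase genes of complex II all had their highest value in antibody animal 3. Sdhb, the iron-sulfur subunit (chromosome 4, 140517186 to 140535107), had 239, 212, 225 and 204 CPM with IgG and 280.4, 206, 401 and 284 CPM with the antibody. Sdha had 854, 698, 720.2 and 673 CPM against 859, 685, 1390.1 and 966 CPM. For these catalytic genes 3 of 4 antibody values lay above all IgG values, and antibody animal 2 did not. The anchors Sdhc (147 ± 20.6 and 189 ± 44.2 CPM, IgG and antibody) and Sdhd (220.3 ± 28.2 and 279.5 ± 66.5 CPM) had ratios of antibody animal 3 to the rest of 1.53 and 1.57, under the 1.70 of Sdhb and 1.78 of Sdha.

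Complex III, which oxidises ubiquinol, had the highest median ratio in antibody animal 3. Uqcr11, its smallest subunit (chromosome 10, 79865742 to 79869566), had 135, 116, 119.7 and 125 CPM with IgG and 148, 113, 210.0 and 166 CPM with the antibody. The core protein Uqcrc2 had 349, 245, 323 and 287 CPM with IgG and 363, 277, 549 and 382 CPM with the antibody. Uqcrq, the ubiquinone-binding subunit, had 109, 113, 110.1 and 92.9 CPM against 120.0, 87.0, 198 and 126 CPM. In each of these 3 genes the lowest antibody value was that of animal 2. It lay below all 4 IgG values for Uqcr11 and Uqcrq, and below 3 of them for Uqcrc2. Uqcrc1 and Uqcr10 had 341 ± 44.8 and 109.7 ± 12.5 CPM with IgG and 434 ± 124 and 143 ± 43.1 CPM with the antibody.

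In complex IV, cytochrome c oxidase, the 10 ubiquitous subunits followed antibody animal 3. Of the 3 restricted paralogues with counts, Cox4i2 and Cox6a2 did not. Cox6b2 did, with its highest value there (2.32 CPM, a ratio to the rest of 1.54). None of these 3 had more than 66 counts in a library. Cox6c, a small subunit at the membrane face (chromosome 15, 35861731 to 35868001), had 203, 157, 218 and 186 CPM with IgG and 225, 190.2, 362 and 298 CPM with the antibody. Cox4i1 had 428, 359.7, 437 and 379 CPM with IgG and 443, 376, 645 and 535 CPM with the antibody. Cox6a2 had 0.684, 2.12, 0.83 and 0.540 CPM with IgG and 0.293, 0.561, 0.700 and 0.567 CPM with the antibody, so the highest value was in IgG animal 2, the library with cardiac transcripts. Skeletal muscle markers also had their highest sum in that library, 67.0 CPM. Cox4i2 had 0.821, 3.04, 1.95 and 1.75 CPM against 2.44, 1.47, 1.71 and 1.38 CPM, also highest in IgG animal 2. The part of cardiac or skeletal muscle tissue in these values was not tested. Cox7a2l, which encodes a Cox7a2-like protein, spanned only 102 to 137 CPM over the 8 animals, and its ratio in antibody animal 3 was 1.04. Cox7a2 itself had 123 ± 19.5 CPM with IgG and 148 ± 31.0 CPM with the antibody, at a ratio of 1.49.

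In complex V the 3 genes for the ring subunit c had lower ratios of antibody animal 3 to the rest than the other structural groups. The 5 genes of the catalytic head and central stalk had a median ratio of antibody animal 3 to the rest of 1.59, the 4 genes of the peripheral stalk one of 1.44, and the small membrane subunits Atp5k, Atp5j2 and Atp5l one of 1.58. The subunit c genes had 0.771 (Atp5g1), 1.09 (Atp5g2) and 1.13 (Atp5g3). Atp5b (chromosome 10, 127520363 to 127527444) had 1926, 1585, 1667 and 1554 CPM with IgG and 1937, 1575, 3019 and 2195 CPM with the antibody. Atp5g1 (chromosome 11, 95934107 to 95937008) had 27.6, 17.9, 29.3 and 28.0 CPM with IgG and 26.3, 27.3, 19.997 and 25.1 CPM with the antibody. The lowest Atp5g1 values were thus those of IgG animal 2 and of antibody animal 3, the animal with the highest Atp5b. Atp5g2 had 29.8 ± 4.62 CPM with IgG and 30.8 ± 3.01 CPM with the antibody, and Atp5g3 92.7 ± 20.6 and 101 ± 6.85 CPM. These genes encode the same mature protein and differ in their targeting sequence. Reads shared between copies were left out, so the levels of the 3 are uncertain to that extent.

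Subunit c RNA, summed over its 3 genes, was 223, 151, 236 and 205 RPKM across IgG animals 1 to 4, and 206, 205, 222 and 228 RPKM across antibody animals 1 to 4. Antibody animal 3, the highest for Atp5b, was not the highest here. Relative to Atp5b the sum was 21.7%, 17.9%, 26.6% and 24.8% with IgG and 19.9%, 24.5%, 13.8% and 19.5% with the antibody. The lowest share was that of antibody animal 3, and the groups overlapped (22.8% ± 3.84 and 19.4% ± 4.38, SD, n = 4). Antibody animal 3 and IgG animal 2, the next lowest, also had the most alignments to several places (43.0% and 48.0%). The other libraries had 35.2% to 40.4%. The part of this in the Atp5g1 and subunit c values was not tested. Atp5g3 made up 62.5% ± 3.79 of the sum with IgG and 64.6% ± 1.51 with the antibody, and Atp5g1 14.5% ± 0.865 and 13.3% ± 2.22. By contrast the pair of head subunits kept step: Atp5b over Atp5a1 was 1.98 ± 0.108 with IgG and 2.03 ± 0.0532 with the antibody.

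**Figure D3:**
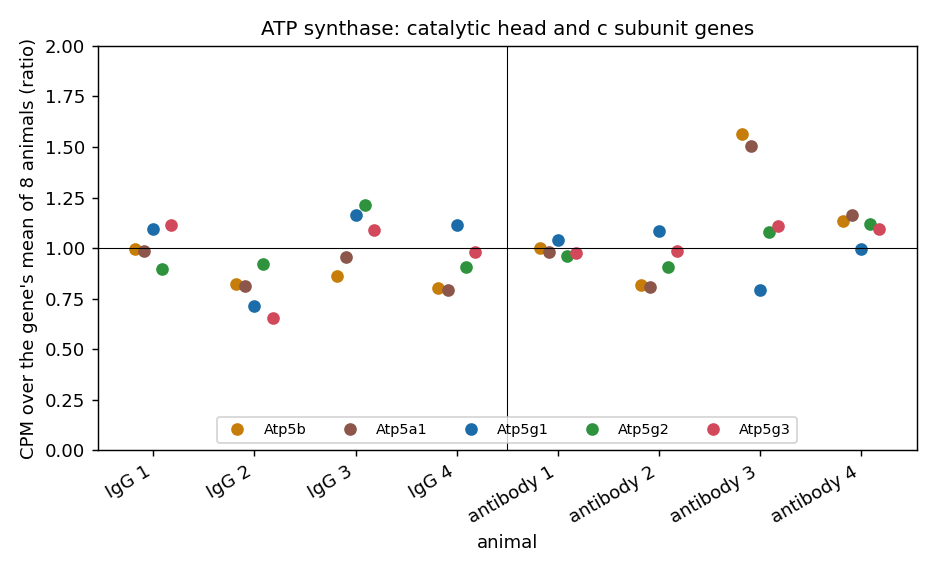
CPM of 5 ATP synthase genes over each gene's own mean of 8 animals (ratio, linear axis from 0), by animal. In antibody animal 3 the head subunits Atp5b and Atp5a1 lie near 1.5 while Atp5g1 lies under 1 and Atp5g2 and Atp5g3 near 1.1.

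Animals given the antibody against interleukin-1β were then set against those given IgG. The schedule is not given in the sources used here, so the stage of the lesions when treatment began is not known. Most members had higher means in antibody animals, and no member passed the test. In edgeR (quasi-likelihood, p adjusted by Benjamini-Hochberg over all genes), 0 of 79 members had an adjusted p under 0.05, as did 0 of 15980 genes (0%). The smallest adjusted p of a member was 0.9997. Unadjusted, 1 member was under 0.05, Cox6c, where the same held for 3.19% of all genes (1.13% higher and 2.06% lower in antibody animals). DESeq2 called 0 members (8 genes in all, 0.0501%) with 2 at an unadjusted p under 0.05 (3.54% of all genes). Limma-voom with sample quality weights called 0 members (2 genes in all, 0.0125%) with 32 at an unadjusted p under 0.05 (17.3% of all genes). The 4 values of the groups overlapped for every kept member, where they were separate for 1.96% of all genes.

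The log2 fold change of Cox6c was 0.49 ± 0.21 (SE, 95% interval 0.03 to 0.95), with an unadjusted p of 0.0384 in edgeR. The next smallest p-values belonged to Sdhb (0.41 ± 0.19, interval -0.01 to 0.83), Ndufs8 (0.39 ± 0.18, interval -0.01 to 0.79) and Atp5s (0.35 ± 0.16, interval -0.01 to 0.71). Uqcr11 had 0.36 ± 0.17 and Cox5b, a peripheral subunit of the oxidase, 0.36 ± 0.18. Intervals of all of these but Cox6c included 0. The 4 values below 0 (52.3% of all genes were below 0) were those of Cox6a2 (-0.94 ± 0.49), Ndufa4l2 (-0.24 ± 0.25), Cox4i2 (-0.11 ± 0.38) and Atp5g1 (-0.06 ± 0.17).

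Above 0 were 75 of 79 members, against 47.7% of all genes. The median log2 fold change was 0.31 in complex I, 0.38 in II, 0.35 in III, 0.32 in IV and 0.26 in V, against -0.01 over all genes. Members vary together, so these counts are not independent observations. The 95% intervals of 78 members stayed inside a 2-fold change up or down, and the median half-width was 0.44 on the log2 scale (0.40 over all genes). Without antibody animal 3 the medians were 0.15, 0.20, 0.13, 0.14 and 0.13 for complexes I to V, with 0 members at an unadjusted p under 0.05 (2.08% of all genes). Without antibody animal 2 they were 0.43, 0.50, 0.48, 0.44 and 0.35, with 51 members at an unadjusted p under 0.05 (4.89% of all genes) and 0 past the adjusted threshold (0.00624% of all genes). With both IgG animal 2 and antibody animal 3 left out they were 0.12, 0.17, 0.11, 0.11 and 0.05. Scaling by total counts gave 11 members at an unadjusted p under 0.05 (3.36% of all genes).

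**Figure D4:**
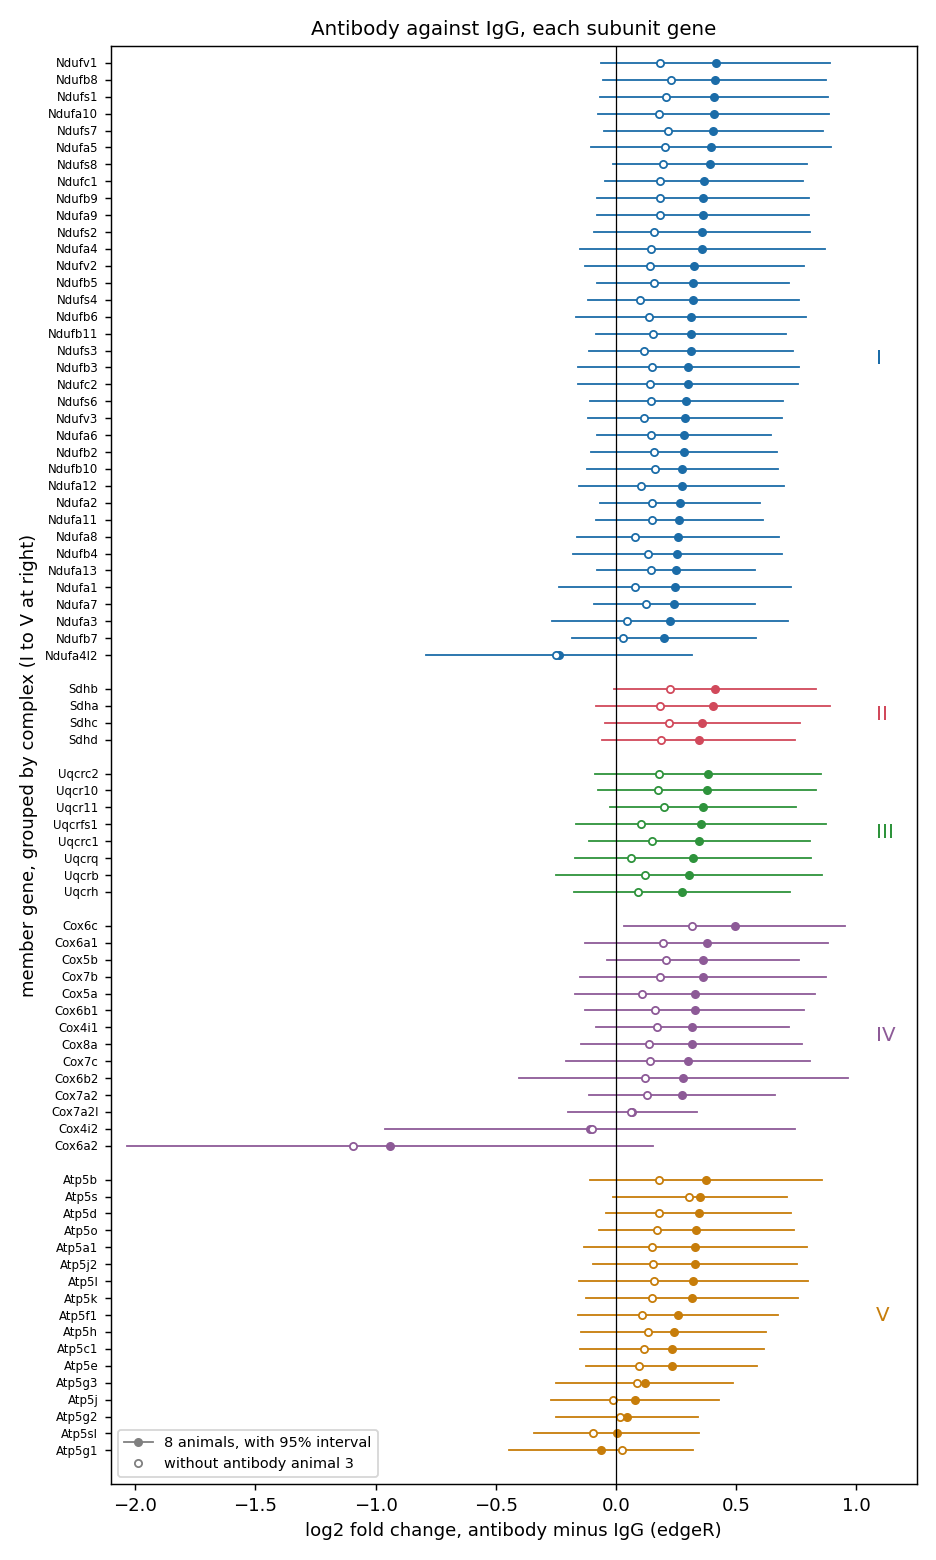
Log2 fold change of each of 79 members, antibody minus IgG, from edgeR (filled points, with 95% intervals) and without antibody animal 3 (open points), grouped by complex. The intervals of all members but Cox6c include 0, and leaving out antibody animal 3 brings the median of each complex down to between 0.13 and 0.20.

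The members were then set against the level of Ucp1. Ucp1 (chromosome 8, 85814247 to 85822355) had 1158, 1275, 912 and 825 CPM with IgG and 914, 712, 3059.6 and 960.4 CPM with the antibody. Antibody animal 3 stands so far above the other 7 (60.1% of the whole log2 range lies in that gap) that a correlation over all 8 would rest on it, so r is given over the other 7. There the median r with Ucp1 was 0.09 for complex I, 0.06 for II, 0.11 for III, 0.05 for IV and -0.06 for V, and 48 of 79 were above 0 (46.9% of all genes). By exact permutation over 5040 orderings 0 of 79 members, and 0% of 15979 genes, passed an adjusted p of 0.05. The design leaves little room for a call: at least 64 genes would have to share the smallest p that 5040 orderings give. The smallest adjusted p of a member was 0.702. Unadjusted, p was under 0.05 for 0 members by Pearson's r (6.25% of genes) and for 1 by Spearman's rho (6.82% of genes).

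That member was Ndufb7, an accessory subunit at the membrane arm of complex I (chromosome 8, 86090657 to 86095522), with 65.4, 66.2, 63.6 and 50.8 CPM with IgG and 64.3, 54.8, 94.6 and 69.1 CPM with the antibody. Over 7 animals its r with Ucp1 was 0.70 (exact permutation p = 0.0859, adjusted p = 0.702) and its rho 0.86 (exact permutation p = 0.0238, adjusted p = 0.666). Without antibody animal 2 and IgG animal 2, the 2 farthest from the median Ucp1 level, r was 0.63. On the other side, Atp5g1 had r = -0.65 (exact permutation p = 0.119, adjusted p = 0.702) and rho = -0.57 (exact permutation p = 0.200). Without the same 2 animals its r was only -0.13. The medians depend strongly on IgG animal 2, which has the second highest Ucp1 and the lowest value of 44 members. Without it, over 6 animals, they were 0.66, 0.50, 0.70, 0.59 and 0.55 for complexes I to V. That library carries the cardiac transcripts and the lowest assigned share given above, and their part in its low member values was not tested. Values also depend on antibody animal 2, the lowest in Ucp1. With that animal left out instead, r was -0.12 for Sdhb and -0.0063 for Uqcr10. With so few animals, single libraries set the sign and size of r.

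Over all 8 animals, with antibody animal 3 included, the median r with Ucp1 was 0.71, 0.74, 0.76, 0.62 and 0.60 for complexes I to V, values that rest on that animal. In an edgeR fit of all 8 with group and Ucp1 level together, 0 members passed an adjusted p of 0.05 (0.144% of all genes, Ucp1 itself counted) and 48 had an unadjusted p under 0.05 (11.5% of all genes). The smallest adjusted p was that of Uqcrq (0.0986, edgeR), whose slope was 0.48 ± 0.09 log2 units per log2 unit of Ucp1. Over the 7 animals without antibody animal 3, Uqcrq had an r with Ucp1 of 0.61 (exact permutation p = 0.138, adjusted p = 0.702). With Ucp1 held in the edgeR fit, the median antibody differences were 0.21, 0.28, 0.22, 0.21 and 0.19, and 6 members had an unadjusted p under 0.05 (3.27% of all genes). All values of this fit include antibody animal 3.

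**Figure D5:**
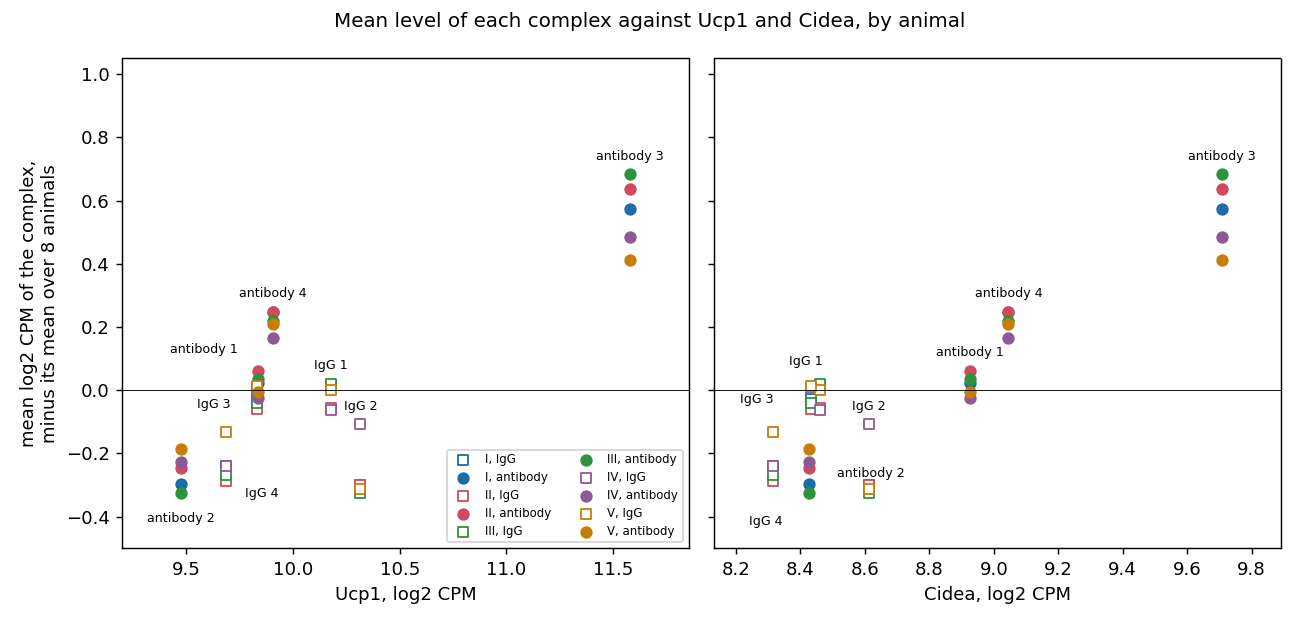
Mean log2 CPM of each complex minus its mean over 8 animals, against log2 CPM of Ucp1 (left) and of Cidea (right), with animals named. Antibody animal 3 is at the top right in both; IgG animal 2 has the second highest Ucp1 but lies below 0 for all 5 complexes.

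Cidea, a lipid droplet protein of brown adipocytes, ordered the animals more like the members did. It had 352, 391, 346 and 318 CPM with IgG and 487, 344, 837 and 528 CPM with the antibody, with antibody animals 3 and 4 first and second as for most members. Antibody animal 3 stands above the rest in Cidea too, and 47.6% of the log2 range lies in that gap (60.1% for Ucp1). Correlations with Cidea over 8 animals therefore also lean on that animal. Over 8 animals the median r with Cidea was 0.87 for complex I, 0.92 for II, 0.89 for III, 0.78 for IV and 0.73 for V, against 0.00 over all genes. Over the 7 without antibody animal 3 it was 0.67, 0.76, 0.68, 0.47 and 0.43. By exact permutation over 40320 orderings 1 member passed an adjusted p of 0.05 over 8 animals (0.0501% of genes), and 61 had an unadjusted p under 0.05 (12.6% of genes). Without antibody animal 3, 0 passed (0% of genes) and 18 had an unadjusted p under 0.05 (3.57% of genes). The 8-animal threshold needs 8 genes at the smallest p and the 7-animal one 64, so the counts of calls cannot be compared. The adjustment covers the genes tested, but not the choice of Cidea or of the animals included. Cidea was chosen with earlier results of these data known. The orderings also mix animals across the groups, although the mean of Cidea was higher with the antibody. No conclusion is therefore drawn from the call over 8 animals.

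The called member was Ndufv3, an accessory subunit beside the NADH-binding site (chromosome 17, 31657060 to 31668270), with 99.4, 102, 84.5 and 80.0 CPM with IgG and 103, 81.2, 149 and 113 CPM with the antibody. Its r with Cidea was 0.95 (exact permutation p = 2.48e-05, the smallest that the orderings can give, adjusted p = 0.0495) and its rho 1 (exact permutation p = 4.96e-05). These p-values carry the limits given above and are a description only. Without antibody animals 3 and 4, the farthest from the median Cidea level, r was 0.77. Without antibody animal 3 alone, r was 0.86 (exact permutation p = 0.00893, adjusted p = 1). Over 7 animals that loss of the call was practically fixed by the number of orderings, as given above, and says nothing on antibody animal 3. With Cidea in the edgeR model beside group, the median antibody differences of complexes I to V were -0.09, -0.03, -0.13, -0.06 and -0.06, and 8 of 79 members lay above 0 (46.4% of all genes). In that fit 1 member had an unadjusted p under 0.05, with a value below 0 (3.09% of all genes in either direction). Cidea itself differed between groups at an unadjusted p of 0.0253 (edgeR, log2 fold change 0.64 ± 0.24), so a fit that holds it constant also takes up part of the group difference. The choice of Cidea followed from earlier results of these data, and a share of brown adipocytes and a shared activity per cell cannot be told apart.

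Other mitochondrial pathways shared the pattern to differing degrees, and none of their genes passed the adjusted threshold (edgeR). Over all genes, 47.7% had fold changes above 0, 15.2% were highest in antibody animal 3, and 3.19% had an unadjusted p under 0.05 (1.13% higher). All 13 fatty acid oxidation genes and all 16 citric acid cycle genes had fold changes above 0 and their highest value in antibody animal 3, with medians of 0.46 and 0.37 (0.19 and 0.17 without that animal). At an unadjusted p under 0.05 were 2 genes of each: Eci1 (0.53 ± 0.20) and Acaa2 (0.53 ± 0.21), which act on fatty acids, and Suclg1 (0.49 ± 0.20) and Suclg2 (0.29 ± 0.12), subunits of succinyl-CoA ligase. Of 13 electron carriers and partners 12 were above 0 (median 0.39, and 0.15 without antibody animal 3), among them Etfa (0.52 ± 0.21) and Etfb (0.49 ± 0.19), the subunits of the flavoprotein that feeds electrons from fatty acids into the chain, and Cyc1, cytochrome c1 of complex III (0.44 ± 0.20).

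Genes that build the chain stood nearer to 0. The shares over all genes were again 47.7% above 0, 15.2% highest in antibody animal 3 and 3.19% at an unadjusted p under 0.05 (edgeR). Of 43 assembly factors 37 were above 0 with a median of 0.16 (0.042 without antibody animal 3), and 31 were highest in antibody animal 3. Ndufaf5, which modifies a complex I core subunit, was the assembly factor at an unadjusted p under 0.05 (0.31 ± 0.12). Of 77 mitochondrial ribosome genes 72 were above 0 with a median of 0.13 (0.033 without antibody animal 3), and 65 were highest in antibody animal 3. Biogenesis regulators had a median of 0.08, which turned to -0.0086 without antibody animal 3, with Tfb2m at 0.30 ± 0.15 and Pprc1 at -0.22 ± 0.18. Ppargc1a, the coactivator best known for driving mitochondrial biogenesis in brown fat, had 46.6 ± 14.4 CPM with IgG and 60.5 ± 27.8 CPM with the antibody (0.38 ± 0.32, and 0.026 without antibody animal 3). Cytosolic ribosome genes, another set of short and abundant transcripts, went the other way: 3 of 78 were above 0 and 3 of 78 were highest in antibody animal 3. Their median was -0.14, and -0.10 without antibody animal 3. Their summed level was 14053.5 to 20446.9 CPM with IgG, highest in IgG animal 3, and 13874.9 to 16759.4 CPM with the antibody, so the groups overlapped. These values leave out 10 ribosomal S6 kinase genes which the symbol pattern also takes in (7 of 88 above 0 with them).

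Markers of other cells gave the following values beside these results, where 47.7% of all genes were above 0 and 15.2% were highest in antibody animal 3. The brown adipocyte list had 13 of 14 genes kept, all 13 above 0 with a median of 0.38, which was 0.06 without antibody animal 3, and 12 were highest in that animal. Cox8b, 1 of the isoforms left out of the members, had 189 ± 17.2 CPM with IgG and 281 ± 109 CPM with the antibody and an r with Cidea of 0.98. Of 9 general and white adipocyte markers 6 were above 0 (median 0.23, and 0.011 without antibody animal 3), and their summed level was 4296 to 5910 CPM with IgG and 4355 to 8285 CPM with the antibody. In the cardiac list 1 of 8 genes was above 0 and 0 were highest in antibody animal 3, with sums of 67.1 to 278 CPM with IgG and 81.9 to 118 CPM with the antibody. Skeletal muscle markers summed to 7.10 to 67.0 CPM with IgG and 4.77 to 41.9 CPM with the antibody. The highest sum was that of IgG animal 2 and the lowest that of antibody animal 3. Smooth muscle markers summed to 1691 to 2511 CPM with IgG and 1122 to 3528 CPM with the antibody, and again antibody animal 3 had the lowest sum and antibody animal 2 the highest. All 5 macrophage markers had values below 0 (median -0.27), with sums of 897 to 2035 CPM with IgG and 1083 to 1447 CPM with the antibody. Csf1r, a macrophage receptor, had -0.38 ± 0.15 (edgeR, unadjusted p = 0.0265). Of 4 endothelial markers 2 were above 0 (median -0.04), with sums of 1274 to 1547 and 1271 to 1474 CPM. The 3 epithelial markers kept were all below 0 (median -0.51), with sums of 10.1 to 28.6 and 8.09 to 12.97 CPM. Krt8, a keratin, had -2.60 ± 1.06 (edgeR, unadjusted p = 0.0357). That value leans on IgG animal 1, with 250 Krt8 counts against 2 to 34 in every other library. Also at an unadjusted p under 0.05 (edgeR) were 3 brown adipocyte markers, all higher, and 3 cardiac markers, all lower. Those cardiac markers (Myh6, Nppa and Myl7) were highest in IgG animal 2. None of these passed the adjusted threshold. The part of each of these cell types in the members' values was not tested.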

How the data were processed

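Whole-tissue RNA of 8 brachiocephalic artery lesions, 4 per group, was sequenced. The deposited values are raw counts per gene symbol: featureCounts 1.4.6-p4 was run by the authors on exons of the UCSC mm9 annotation, per the file headers, and the exon length per gene is the authors' value. STAR 3.0, CASAVA, DESeq2 and Subread are named by the submitters' processing notes. The header shows no strand option, so antisense reads count for the gene, and multimapping or ambiguous alignments, per the authors' status table of alignment counts, were left out.

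Groups came from sample titles. Genes were kept by filterByExpr (minimum count 10, total 15), leaving 15980, scaled by TMM and tested with edgeR 4.0.16 (quasi-likelihood, robust, R 4.3.3), with Benjamini-Hochberg adjustment over all genes and a threshold of 0.05. DESeq2 1.42.0 and limma 3.58.1 (voom with quality weights) were alternatives. Correlations used log2 CPM (prior count 2) with exact permutation over animals. Every pair of libraries differed by more than counting error (lowest chi-square per degree of freedom 26.5 over 28 pairs). The members and lists were chosen with earlier results of these data known. Genes named are, per complex, the 4 smallest p, the 3 largest absolute r with Ucp1, the 2 highest and the lowest per length, the paralogues, and 3 genes per pathway list; others (Ndufv1, Ndufs5, Cidea, Ppargc1a, cell type markers, small membrane ATP synthase subunits, and Ndufs3 for its promoter) were added after values were seen. The scripts were tested on simulated data.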

Additional observations from a re-analysis of the deposited data

Results flagged for a closer look

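In groups of 4, a value was marked where its gap to the nearest of the others took most of the group's range (Dixon's criterion at 95%). Chance marks about 1 in 20 groups, and 100 groups were looked at. Ucp1 in antibody animal 3 was 3059.6 CPM, against 712 to 960.4 CPM in the other antibody animals. Atp5g1, a gene for ATP synthase subunit c, was 17.9 CPM in IgG animal 2, against 27.6 to 29.3 CPM in the other IgG animals. Atp5g2, another subunit c gene, was 36.7 CPM in IgG animal 3, against 27.2 to 27.9 CPM. Ndufb7, an accessory subunit of complex I, was 50.8 CPM in IgG animal 4, against 63.6 to 66.2 CPM. No cause was tested for any of these.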

How the results depend on the processing

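With 8 animals, differences under about 0.44 on the log2 scale lay within the typical 95% interval of a member. The count of members past the adjusted threshold was 0 in all 18 alternatives for the group comparison. It was also 0 in all 15 for the relation to Ucp1, which says nothing on stability where it comes from permutation: with 7, 6 or 5 animals at least 64, 444 or 2664 genes would have to share the smallest p. The count of all genes past it was 0, but 8 with DESeq2, 2 with limma-voom, and 0 to 1 with 1 animal left out. For Ucp1 it was 0, but 22 besides Ucp1 itself for the edgeR slope over all 8 animals.

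The median of each complex kept its sign in 16 alternatives and with IgG animal 2 and antibody animal 3 both left out, the latter added after seeing the data. With 1 animal left out it ranged from 0.15 to 0.43, 0.20 to 0.50, 0.13 to 0.48, 0.14 to 0.44 and 0.13 to 0.35 for complexes I to V. With Cidea as a covariate, also added after seeing the data, the medians were -0.088, -0.032, -0.13, -0.059 and -0.064; the cause was not tested. The titles' replicate numbers are not said to pair the animals. Same-numbered deviations from the group means correlated at 0.29, -0.34, -0.13 and 0.00, which cannot show whether a pairing existed. With the replicate number as a block 0 members passed, 2 had an unadjusted p under 0.05, and the medians were 0.28, 0.35, 0.31, 0.30 and 0.25.

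Single log2 fold changes changed sign for Ndufa4l2 (0.29 with limma-voom) and Cox4i2 (0.035 with limma-voom; -0.36 to 0.21 with 1 animal left out). With 1 animal left out Atp5g1 ranged from -0.20 to 0.026, Atp5g2 from -0.0041 to 0.16 and Atp5g3 from -0.027 to 0.20. Correlations with Ucp1 changed sign for Sdhc (0.63 with Cidea, 0.28 without the 2 animals farthest in Ucp1, 0.61 over 8 animals, edgeR slopes 0.16 over 7 and 0.26 over 8), Cox6a2 (-0.26 with Cidea), Cox7a2l (0.19 with Cidea), Atp5sl (-0.63 without the farthest 2) and Atp5s (0.38 with Cidea, 0.15 without the farthest 2, 0.29 over 8 animals, slope 0.070 over 8). With 1 animal left out Sdhb ranged from -0.12 to 0.52, Sdhc from -0.35 to 0.48 and Uqcr10 from -0.0063 to 0.72. None of these values passed the adjusted threshold, and the causes were not tested.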
